A study of Homo sapiens with 6 samples.

Results

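The genes described here encode proteins that the liver makes for plasma, the apolipoproteins of its lipoproteins, and enzymes and surface receptors of hepatocytes. The 35 genes were chosen by symbol from a list of liver genes that had been drawn up with earlier results of these data in view, so their fold changes and p-values are given as a description. Of them, 34 had a row among the 33007 genes of the deposited table, 33 had at least 1 count in 1 library, and 27 passed the filter on low counts. APOA4 had no row, so its expression was not analysed here.

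RNA-seq was performed in LM3 cells, an established human HCC (hepatocellular carcinoma) line. The control group was 3 vector control libraries and the ZNF706 knockdown group was 3 libraries from cells that stably carried a lentiviral pLKO.1 shRNA against ZNF706, a zinc finger gene, after puromycin selection. All 6 libraries have the same genotype label, WT, and whether the knockdown line holds 1 hairpin or 1 clone was not given in the sources used here. The comparison asks how the liver programme of these cancer cells stood when ZNF706 was reduced. Total counts were between 62684076 and 64713764 in control and between 65861994 and 69057423 in knockdown, and each knockdown library was deeper than each control library. Nothing states that replicates came from separate cultures. The p-values therefore set each group difference against the spread between these libraries, which may be technical. They do not cover differences between separately made cell lines.

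Hepatocytes secrete most plasma proteins, package lipids onto apolipoproteins and dispose of ammonia in the urea cycle. Transcription of these genes depends on liver-enriched factors of the HNF1, HNF4, FOXA and C/EBP families acting at short promoters and enhancers. In HCC the programme is often partly lost, and AFP, a fetal plasma protein, is often made again.

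ZNF706 (ENSG00000120963) had 3211, 3504 and 3357 counts in control and 2350, 2068 and 2298 in knockdown. The groups did not overlap. Its CPM (its share of the library's counts, with TMM scaling) was 53.9 ± 1.76 (SD, n = 3) in control and 32.4 ± 1.39 (SD, n = 3) in knockdown, a log2 fold change of −0.73 (SE 0.050, adjusted p = 3.7e-05 by edgeR's quasi-likelihood test). The targeted gene was therefore lower in each library labelled knockdown.

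Some libraries stood apart for these genes within their own group. Control 1 and knockdown 3 were both more than 2-fold below each of the other 4 libraries for 7 of the 27 tested liver genes, namely ALB, AFP, TF, AMBP, RBP4, TTR and ORM1. TTR met this 2-fold rule with 0 counts in both libraries and ORM1 with 6 in each, so both rest on few counts. Of all 18390 tested genes, 45 (0.245%) had that pattern. Among the other 14 of the 15 possible library pairs, the number of genes with both libraries low or both high ranged from 2 to 92, and at most 3 of the liver genes were among them. The values of these 7 genes are given below with and without control 1 and knockdown 3, a comparison chosen after the values were seen.

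The 27 tested liver genes tended to be lower in knockdown, but few differed beyond the spread between libraries. At an adjusted p below 0.05, 5 genes were lower (AGT, APOB, APOH, FGL1 and PCK1) and 0 were higher, against 12.4% of all tested genes called lower and 10.4% called higher. Of all calls 45.5% were higher, and with libraries scaled by total count alone, in place of TMM, 64.4% were. The count of lower liver genes was 1 without control 3, 2 without control 2 and 2 without knockdown 1, where 9.02%, 9.08% and 10.2% of all genes were called lower. The filter asked for the level of 10 counts in at least 3 libraries, which 18 of the 27 genes reached in all 6. PCK1 reached it in the control libraries alone, and AHSG, APOA1, APOC3, APOH, ITIH2 and ITIH3 needed those to pass, so that these genes could enter only by being high in control and the counts and median over the genes that passed are a description alone. With a mean count of at least 50 over all libraries in its place, the lower calls were AGT, APOB and FGL1. The log2 fold change was below 0 in 23 of 27 genes, against 48.7% of all genes, and its median was −0.93, against 0.01 over all genes (−0.69 for liver genes that averaged 50 counts or more). In 9 genes all knockdown libraries lay below all control libraries and in 2, APOC1 and TDO2, all lay above, where 19.7% of all genes fell in the first class and 19.7% in the second. Under the study's own criteria (p below 0.05, taken as unadjusted, with a log2 fold change beyond ±0.3, applied here to the edgeR fit in place of DESeq2) 12 of the genes were lower and 2 were higher, against 5.88% and 9.61% of all genes, which is fewer of all genes in both directions than under the adjusted threshold. Without control 1 and knockdown 3, 8 genes passed the adjusted threshold as lower, against 8.75% of all genes tested in that fit, and the median was −0.73. The 8 include ALB and TF, whose own low values chose the libraries to leave out. They also include APOA1 and APOA2, whose 1 knockdown library near the control level was thereby removed. For CPS1 and APOH, the lowest control and the highest knockdown library were removed, and for APOB the lowest control library. The calls of ALB, TF, APOA1, APOA2, APOB, CPS1 and APOH there are therefore no test. In bulk RNA, fewer cells that express a gene and less RNA per cell cannot be told apart.

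**Figure D1:**
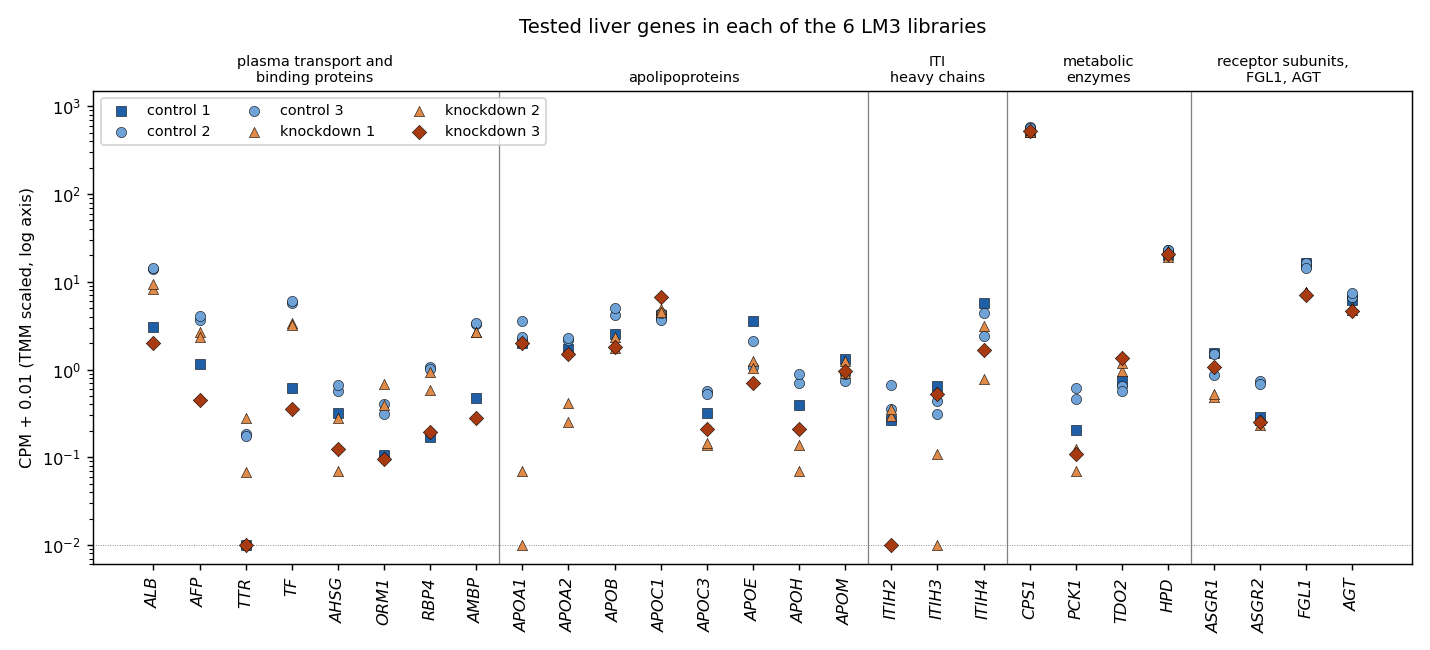
CPM plus 0.01 (TMM scaled, log axis) of the 27 tested liver genes in each of the 6 libraries, grouped by role; each marker is 1 library, and control 1 and knockdown 3 have their own marker shapes. CPS1 stands far above the other genes, and control 1 and knockdown 3 are the lowest markers for ALB, AFP, TF, AMBP and RBP4, or nearly so.

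Levels differed widely between these genes. On the length-scaled FPKM scale, the mean over 6 libraries was highest for CPS1 at 42.6, followed by HPD at 8.47, APOC1 at 3.35, FGL1 at 3.05, AGT at 2.41 and ALB at 2.17. The summed FPKM of the 34 genes was 68.8, 78.8 and 78.9 in control and 65.9, 65.3 and 66.0 in knockdown, of which CPS1 alone made the larger share. Without CPS1 the sums were 27.4, 33.7 and 35.5 in control and 24.8, 23.7 and 23.2 in knockdown, and the groups did not overlap. Albumin, the most abundant plasma protein, was thus detected in these HCC cells at a low level, and ITIH1 had 0 counts in all 6 libraries. FPKM of TF is low for its counts because the deposited length of that gene, as implied by the ratio of its counts to its FPKM, was 29.6 kb, and the union of its annotated exons in GENCODE release 29 was 26.2 kb.

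The carriers of plasma formed the group most divided between libraries of the same group. ALB (ENSG00000163631, GRCh38 chr4:73397114-73421410, plus strand) and AFP (chr4:73431138-73455743, plus strand), which encodes the fetal relative of albumin, lie 9.7 kb apart. ALB had 189, 899 and 882 counts in control and 587, 635 and 138 in knockdown. AFP had 71, 230 and 252 counts in control and 189, 156 and 31 in knockdown. In both genes control 1 fell below knockdown 1 and knockdown 2, so the groups overlapped.

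The highest control library held 4.71 times the ALB CPM of the lowest, and the highest knockdown library 4.80 times that of the lowest. The log2 fold change was −0.67 (SE 0.59, adjusted p = 0.476) for ALB and −0.70 (SE 0.59, adjusted p = 0.456) for AFP, and neither difference was larger than the spread between libraries. Between the 2 control libraries and the 2 knockdown libraries that remain without control 1 and knockdown 3, the log2 fold change of ALB was −0.68 and that of AFP −0.62. No p is given for these values, since the libraries left out were chosen on the low values of these genes and their removal takes the spread away. Leaving out a single library moved ALB further, to −1.11 without control 1 and −0.24 without knockdown 3, and AFP to −1.09 and −0.23 in the same fits, and neither was called in any of the 6 fits.

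The 250 bases before the RefSeq start (GRCh38.p14) of ALB at chr4:73404037-73404286 and of AFP at chr4:73435971-73436220, both on the plus strand, are printed 5′ to 3′ because these neighbouring genes were high and low in the same libraries. Capitals mark the only matches to GTTAATNAT, the letters of an HNF1 type site, searched on both strands. It lies from 61 to 53 bases before the start in ALB and from 132 to 124 in AFP.
ALB: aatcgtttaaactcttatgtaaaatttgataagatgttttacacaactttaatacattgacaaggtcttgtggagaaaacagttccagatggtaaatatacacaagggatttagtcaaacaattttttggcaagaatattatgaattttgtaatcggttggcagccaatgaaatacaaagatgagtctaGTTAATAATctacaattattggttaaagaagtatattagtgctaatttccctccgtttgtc
AFP: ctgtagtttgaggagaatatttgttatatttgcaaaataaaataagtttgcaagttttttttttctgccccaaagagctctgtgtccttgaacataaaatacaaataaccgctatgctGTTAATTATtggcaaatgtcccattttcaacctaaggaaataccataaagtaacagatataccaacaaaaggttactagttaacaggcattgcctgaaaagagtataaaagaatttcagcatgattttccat
Of 23 liver genes with a RefSeq promoter entry, these 2 held the letters, and 0.723% of all 35116 promoters did. A gene can have several promoter entries, so a count of genes and a share of promoters are not on the same scale. TF, AMBP, RBP4 and ORM1, low in the same libraries as ALB, have entries without the letters, and TTR has no entry. The other searched letters were CAAAGTCCA (HNF4 type, AHSG only, 0.325% of promoters), TNTTTAC (FOXA type, 4 genes including ALB, 9.58%), CCAAT (12 genes, 32%) and TATAAA (7 genes, 10.7%). A match is a description of the letters, not of a bound site.

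TF, the iron carrier transferrin, had 37, 361 and 375 counts in control and 234, 213 and 24 in knockdown. AMBP, the precursor of alpha-1-microglobulin and bikunin, had 29, 210 and 207 in control and 187, 179 and 19 in knockdown. Both had their lowest values in control 1 and knockdown 3, and their CPM differed up to 10.2-fold among control libraries for TF and up to 9.83-fold among knockdown libraries for AMBP. The log2 fold change was −0.85 (SE 0.81, adjusted p = 0.511) for TF and −0.35 (SE 0.77, adjusted p = 0.801) for AMBP by edgeR, and without these libraries that of TF was −0.86 and that of AMBP −0.32. TF was at −1.37 without control 1 alone and at −0.34 without knockdown 3 alone.

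RBP4, the retinol carrier of plasma, had 10, 67 and 61 counts in control and 40, 62 and 13 in knockdown. TTR, which carries thyroxine and binds RBP4, had 0, 11 and 10 counts in control and 4, 18 and 0 in knockdown. These genes too had their lowest libraries in control 1 and knockdown 3, with log2 fold changes of −0.40 (SE 0.70) and −0.06 (SE 1.31). Without these libraries the values were −0.45 and −0.05, and both signs changed when single libraries were left out.

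AHSG did not have that library pattern. It encodes the mineral-binding fetuin-A and had 19, 36 and 40 counts in control and 19, 4 and 8 in knockdown, a log2 fold change of −1.76 (SE 0.64, adjusted p = 0.0757 by edgeR). AHSG was at −1.39 without knockdown 2 and at −2.52 without knockdown 1, its highest knockdown library, and was called in 1 of the 6 fits with a library left out. Its lowest libraries were knockdown 2 and knockdown 3, and scaled to depth its groups did not overlap. ORM1, an acute-phase glycoprotein with the pattern of ALB, had 6, 19 and 24 counts in control and 47, 26 and 6 in knockdown, with a log2 fold change of 0.54 (SE 0.76), and 0.62 without control 1 and knockdown 3. ORM1 lies 3.4 kb from its near-identical copy ORM2, which had 3 to 19 counts per library and was not tested, and reads may have been split between the copies, so both values are uncertain. HP, the haemoglobin binder haptoglobin, had 0 to 16 counts, HPX, the haem carrier, had 0 to 7, and FETUB had 6 counts in control 1 and 0 elsewhere. At that depth no difference was detectable in these genes.

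Counts were also scaled to ALB counts in the same library. AFP stood at 37.6, 25.6 and 28.6 counts per 100 ALB counts in control and 32.2, 24.6 and 22.5 in knockdown. For APOB the values were 82.5, 29.6 and 34.5 in control and 21.0, 24.9 and 92.0 in knockdown. AGT ran from 47.7 to 236.0 and CPS1 from 3900 to 26800 across the 6 libraries. TF ran from 17.4 to 42.5 and AMBP from 13.8 to 31.9. ALB enters every ratio, and AFP, TF and AMBP were among the genes grouped for being low where ALB was, so the narrower ranges of these carriers restate that grouping.

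**Figure D2:**
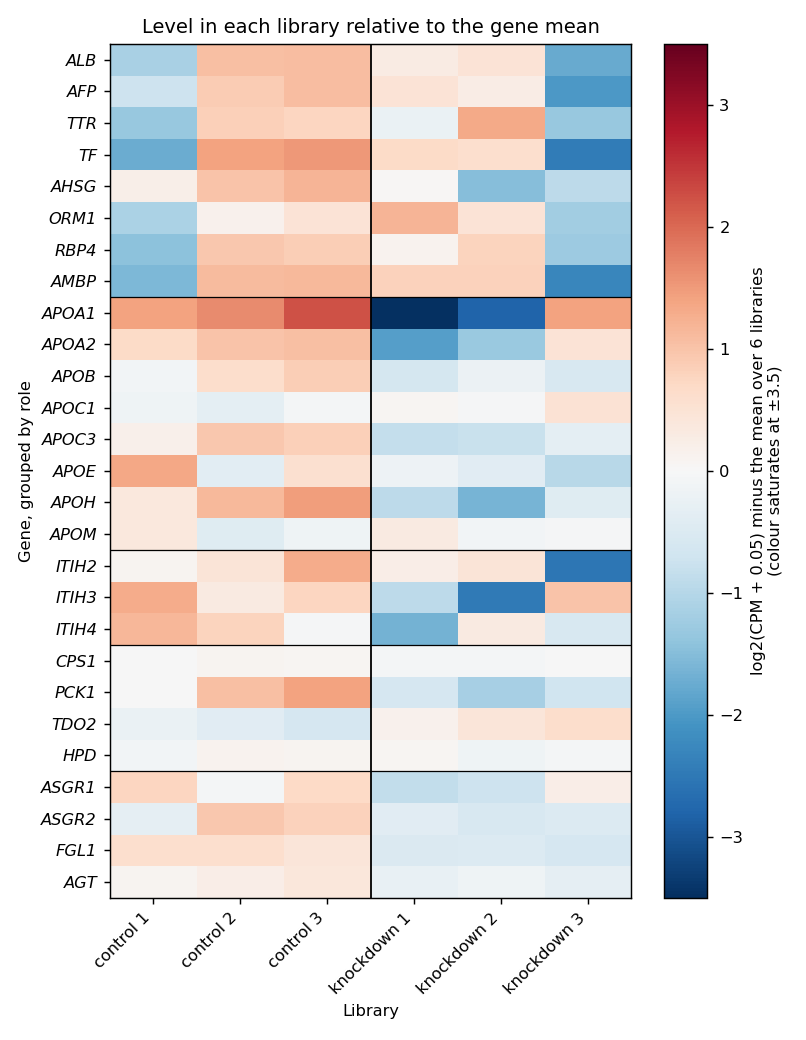
Level of the 27 tested liver genes in each library as log2(CPM + 0.05) minus the gene's mean over the 6 libraries, with the colour saturating at ±3.5 and the vertical line dividing control from knockdown. Control 1 and knockdown 3 are blue for most carriers of plasma, APOA1 and APOA2 are blue in knockdown 1 and knockdown 2, and CPS1 and HPD are near white throughout.

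The libraries that were low for the carriers differed in other genes as well. The most abundant of the 45 genes with the same pattern was not a liver gene but RPS10-NUDT3, a readthrough locus that may share reads with the genes it joins, with 1944, 13905 and 15118 counts in control and 14874, 15736 and 5226 in knockdown. Others were FGB, the beta chain of fibrinogen, with 28, 117 and 152 counts in control and 109, 105 and 14 in knockdown, and GPC3, a cell surface proteoglycan used as an HCC marker, with 6, 122 and 166 in control and 127, 101 and 0 in knockdown. EPCAM, an epithelial and progenitor marker, had 8, 34 and 29 counts in control and 51, 74 and 6 in knockdown. In the opposite direction, 11 genes (0.0598%) were more than 2-fold above the other 4 libraries in control 1 and knockdown 3, with 0 liver genes among them, and FBXO32, a muscle-atrophy ubiquitin ligase gene, had 156, 10 and 15 counts in control and 52, 48 and 208 in knockdown. These genes were named after their values were seen, and their part in the results was not tested. Where a gene averaged 100 counts or more, 5 of 13 liver genes varied more than 3-fold among control libraries, against 0.807% of 12766 genes, and 6 of 13 did so among knockdown libraries, against 0.713%.

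The apolipoproteins had a median of −1.35 over 8 tested genes, with 6 below 0 and 2 above. APOA1, APOC3 and APOH needed the control libraries to pass the filter, so this median is not ranked against those of the other role groups. APOB and APOH were called lower and 0 were called higher, against 12.4% and 10.4% of all genes. APOB, the structural protein of very low and low density lipoproteins, had 156, 266 and 304 counts in control and 123, 158 and 127 in knockdown. Scaled to depth, every knockdown library lay below every control library. Its level was 3.89 ± 1.24 CPM (SD, n = 3) in control and 1.97 ± 0.331 CPM in knockdown. The log2 fold change was −0.98 (SE 0.25, adjusted p = 0.0206 by edgeR), and −1.15 without control 1 and knockdown 3. Control 1 was the lowest control library of APOB, so no p is given for the fit without it and knockdown 3. By limma on log2(FPKM + 0.1) APOB was at −0.54 and was not called (adjusted p = 0.215). Nor was APOB called on log2(FPKM + 1) (−0.13, adjusted p = 0.214) or by edgeR without the filter on low counts (adjusted p = 0.0751). APOB lies at chr2:21001429-21044073 on the minus strand.

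APOH, or beta-2-glycoprotein I, a phospholipid-binding plasma protein, had 24, 44 and 54 counts in control and 9, 4 and 14 in knockdown. The groups did not overlap, and the level fell from 0.653 ± 0.248 CPM to 0.129 ± 0.0702 CPM (SD, n = 3 each). The log2 fold change was −2.32 (SE 0.58, adjusted p = 0.0174 by edgeR), and −3.03 without control 1 and knockdown 3. These were the lowest control and the highest knockdown library of APOH. Their removal widens the gap by construction, so no p is given for that fit. The counts behind these values are few. Leaving out a single library ended the call of APOB and of APOH in 4 of 6 cases each.

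APOA1, the main protein of high density lipoprotein, had 122, 150 and 217 counts in control and 0, 4 and 138 in knockdown. APOA2, the next most abundant protein of that particle, had 105, 137 and 139 in control and 17, 27 and 105 in knockdown. Knockdown 3 thus stood near the control level for both genes, while knockdown 1 and knockdown 2 lay far below it. The log2 fold change was −1.95 (SE 1.09, adjusted p = 0.246) for APOA1 and −1.51 (SE 0.55, adjusted p = 0.0774) for APOA2 by edgeR. Leaving out knockdown 3 removes the knockdown library that went against the others, so no p is given for the fit without it. Together with ITIH3, these were the 3 liver genes more than 2-fold lower in both knockdown 1 and knockdown 2 than in the other 4 libraries, a pattern of 39 genes (0.212%). Knockdown 3, low for ALB, was high for APOA1, so that the ratio of APOA1 to 100 ALB counts was 0, 0.63 and 100 in knockdown and 64.6, 16.7 and 24.6 in control.

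APOC3, an inhibitor of lipoprotein lipase whose gene lies 2.7 kb from APOA1, had 19, 36 and 32 counts in control and 9, 9 and 14 in knockdown. In contrast to APOA1, all of its knockdown libraries were low (log2 fold change −1.58, SE 0.52, adjusted p = 0.0564 by edgeR), and limma called it lower on log2(FPKM + 0.1) and on log2(FPKM + 1) (adjusted p = 0.0303 and 0.0333). APOE, a lipoprotein component that mediates uptake of remnant particles, had 223, 67 and 128 counts in control and 86, 70 and 48 in knockdown. Control 2 lay within the knockdown range and control 1 was highest (−1.19, SE 0.41, adjusted p = 0.0664 by edgeR). APOE was at −0.67 without control 1 and at −1.53 without control 2, its lowest control library, and was called in 1 of the 6 fits with a library left out.

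APOC1, a small exchangeable apolipoprotein whose gene lies 4.9 kb from APOE, went the other way. It had 260, 234 and 270 counts in control and 345, 306 and 466 in knockdown, and after scaling the groups did not overlap, with a log2 fold change of 0.39 (SE 0.17, adjusted p = 0.125 by edgeR) that was 0.21 without knockdown 3. APOM, a carrier of sphingosine-1-phosphate, had 80, 46 and 54 counts in control and 87, 61 and 67 in knockdown, a log2 fold change of 0.10 (SE 0.31). APOM overlaps BAG6 on the opposite strand, which drew 126049 counts over the 6 libraries against 395 for APOM, and whether strand was used in counting was not given in the sources used here. APOM turned below 0 when control 2 or knockdown 1 was left out. Summed FPKM of the 8 apolipoproteins was 9.11, 8.51 and 10.5 in control and 5.45, 5.07 and 9.12 in knockdown.

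The inter-alpha-trypsin inhibitor heavy chains are plasma proteins, of which those of ITIH1, ITIH2 and ITIH3 can be joined to bikunin, made from the AMBP precursor, and to hyaluronan. ITIH4, an acute-phase member that is not joined to bikunin, had 351, 276 and 149 counts in control and 54, 211 and 117 in knockdown. Its groups overlapped through control 3, with a log2 fold change of −1.16 (SE 0.45, adjusted p = 0.0962 by edgeR). ITIH4 was at −0.78 without knockdown 1 and at −1.76 without knockdown 2, its highest knockdown library, and was called in 1 of the 6 fits with a library left out. It overlaps AC006254 on the same strand, which held 1280 counts over the 6 libraries against 1158, so reads may have been divided between them. ITIH3 had 40, 19 and 26 counts in control and 7, 0 and 36 in knockdown. ITIH2 had 16, 22 and 40 in control and 20, 23 and 0 in knockdown. Both overlapped between groups, and ITIH1, 2.7 kb from ITIH3, was at 0 throughout.

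The enzymes CPS1 and HPD varied little within groups. CPS1, which makes carbamoyl phosphate at the entry of the urea cycle, had 32455, 36624 and 34362 counts in control and 35579, 34376 and 37030 in knockdown. Its groups overlapped, its CPM varied by at most 1.10-fold within a group, and its log2 fold change was −0.10 (SE 0.039, adjusted p = 0.0955 by edgeR). HPD, an enzyme of tyrosine breakdown, had 1251, 1475 and 1414 counts in control and 1586, 1298 and 1444 in knockdown, a log2 fold change of −0.09 (SE 0.087, adjusted p = 0.543). Neither followed ALB, since control 1 and knockdown 3 held 91.0% and 91.8% of the highest CPS1 level, compared with 21.3% and 13.7% of the highest ALB level. Without control 1 and knockdown 3, the log2 fold change of CPS1 was −0.16. These were its lowest control and highest knockdown libraries, so no p is given for the fit without them.

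The promoters of CPS1 at chr2:210477435-210477684 on the plus strand and of HPD at chr12:121858860-121859109 on the minus strand (RefSeq, GRCh38.p14, 250 bases before the start, 5′ to 3′) are shown as those of the 2 most counted liver genes, which varied little between libraries. RefSeq lists several starts for each gene, and the one nearest to the 5′ end in the deposited table was taken. No capitals appear because GTTAATNAT is not in either window.
CPS1: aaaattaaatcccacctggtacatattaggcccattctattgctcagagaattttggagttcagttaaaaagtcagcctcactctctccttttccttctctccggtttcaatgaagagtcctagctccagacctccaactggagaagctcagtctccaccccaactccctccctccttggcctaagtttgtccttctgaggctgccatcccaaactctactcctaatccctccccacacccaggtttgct
HPD: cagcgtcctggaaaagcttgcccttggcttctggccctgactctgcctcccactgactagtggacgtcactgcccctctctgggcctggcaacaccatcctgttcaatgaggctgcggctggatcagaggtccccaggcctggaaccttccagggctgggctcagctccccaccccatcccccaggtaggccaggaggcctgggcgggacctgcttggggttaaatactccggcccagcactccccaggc
Base composition differed, with 48.4% G and C in the CPS1 window and 64.8% in the HPD window, against 30.0% in the ALB window and 31.6% in the AFP window shown above.

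PCK1, the enzyme of gluconeogenesis that makes phosphoenolpyruvate, had 12, 29 and 37 counts in control and 8, 4 and 7 in knockdown. The knockdown libraries lay below all controls, with a log2 fold change of −2.17 (SE 0.65, adjusted p = 0.0384 by edgeR) that rests on few counts. PCK1 reached the filter level in the control libraries alone, so it was tested only through being high there. Its call and the gap between groups are therefore a description. By edgeR, PCK1 had an adjusted p of 0.0732 without the filter and 0.052 without control 1 and knockdown 3. It passed in 1 of the 6 fits with a library left out. TDO2, which opens the ring of tryptophan, had 45, 41 and 34 counts in control and 67, 79 and 94 in knockdown. All knockdown libraries were higher than all controls, and its log2 fold change of 0.85 (SE 0.29, adjusted p = 0.0604) missed the threshold. ARG1, the arginase of the urea cycle, had 0 to 10 counts and TAT, a tyrosine aminotransferase, at most 2, so neither was tested, and ARG1 overlaps the far more counted MED23 on the opposite strand.

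FGL1, a secreted fibrinogen-like hepatokine, was the most firmly lower of the liver genes. It had 1020, 1044 and 888 counts in control and 530, 517 and 500 in knockdown. No library of either group came near the other group. The level was 15.8 ± 1.15 CPM in control and 7.47 ± 0.291 CPM in knockdown (SD, n = 3 each), a log2 fold change of −1.08 (SE 0.094, adjusted p = 9.9e-05 by edgeR). It was called in all 6 fits with a library left out and was −1.02 without control 1 and knockdown 3 (adjusted p = 0.0033).

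AGT, the precursor of the angiotensins (chr1:230702523-230714122, minus strand), had 381, 429 and 461 counts in control and 336, 346 and 325 in knockdown. The groups did not overlap, and the fall was smaller, from 6.80 ± 0.679 CPM to 4.86 ± 0.265 CPM (log2 fold change −0.48, SE 0.12, adjusted p = 0.0194 by edgeR). Its adjusted p was 0.0558 without control 1 and knockdown 3, and it was called in 2 of the 6 fits with a library left out. ASGR1 and ASGR2, the subunits of the asialoglycoprotein receptor that clears glycoproteins from plasma, lie 57.7 kb apart. ASGR1 had 96, 54 and 92 counts in control and 33, 35 and 74 in knockdown, with an overlap through control 2 and knockdown 3 and a log2 fold change of −0.92 (SE 0.39, adjusted p = 0.123). ASGR2 had 17, 47 and 41 in control and 18, 15 and 17 in knockdown, a log2 fold change of −1.21 (SE 0.50, adjusted p = 0.115). Control 1 was close to the knockdown libraries for ASGR2.

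**Figure D3:**
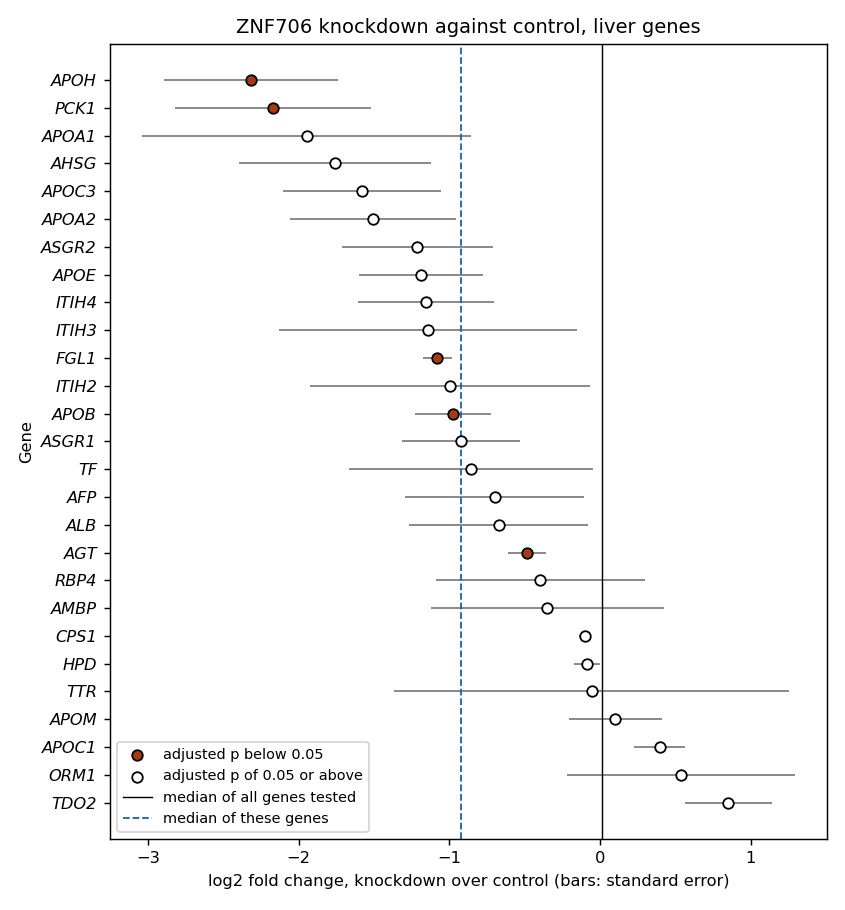
Log2 fold change of knockdown over control for the 27 tested liver genes, ordered by size, with bars for the standard error. Filled points are the 5 genes with an adjusted p below 0.05, of which PCK1 and APOH needed the control libraries to pass the filter. The solid line is the median of all tested genes at 0.01 and the dashed line the median of the liver genes at −0.93.

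Genes whose counts spread little between replicates were called at smaller fold changes than genes that spread much. AGT passed at −0.48, while AHSG at −1.76 and APOA1 at −1.95 did not, as the plot of ordered fold changes shows by the length of their bars. A gene that was not called is not shown to be the same in both groups.

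**Figure D4:**
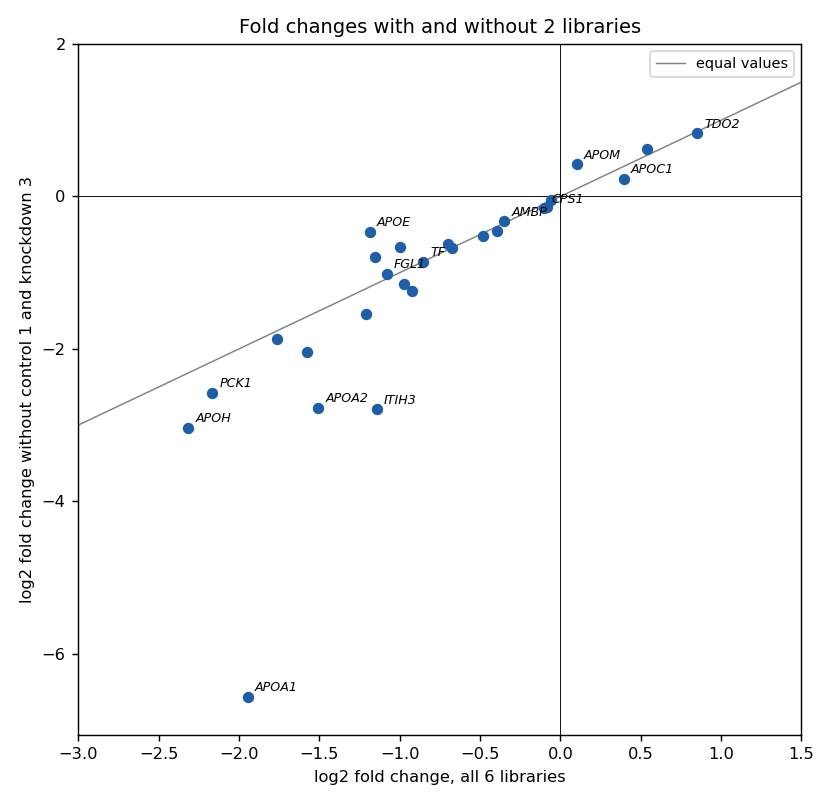
Log2 fold change of each tested liver gene that could be fitted in both ways, with all 6 libraries on the horizontal axis and without control 1 and knockdown 3 on the vertical axis; the line marks equal values. Most points lie near the line, and APOA1, APOA2 and ITIH3 lie far below it.

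Other gene groups of the liver were measured beside these, and their counts stand against 12.4% of all genes called lower and 10.4% called higher. Of 17 tested acute-phase and other secreted proteins, 5 were lower and 0 higher, with a median log2 fold change of −0.76. The called genes included SAA1, an acute-phase apolipoprotein, at −0.89, IGF2, a growth factor, at −1.23, ANG, a secreted ribonuclease, at −1.04, and SERPINA1, the inhibitor of neutrophil elastase, at −1.47. Of 26 complement and coagulation genes, 8 were lower and 1 higher (median −0.56), among them C3 at −0.50, PROS1 at −0.74 and C4BPA at −1.14. C4A, at −0.90, shares most of its sequence with C4B, so its reads may have been divided.

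Of 19 urea cycle, amino acid and glucose enzymes, 4 were lower and 0 higher, with a median of −0.10. ASS1, which joins citrulline and aspartate, fell by 0.28, KYNU by 0.26 and PCK2, the mitochondrial counterpart of PCK1, by 0.55. G6PC, SLC2A2 and PFKFB1 were at 0 in all 6 libraries.

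In the lipoprotein handling list, of 20 tested genes 3 passed as higher and 3 as lower, near the shares of all genes (10.4% and 12.4%), around a median of 0.01. ANGPTL4, an inhibitor of lipoprotein lipase, fell by 0.95 on the log2 scale, and LRP1, an endocytic receptor, was at −0.39.

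Of the liver-enriched transcription factors, 1 of 20 tested genes was higher (DBP, 0.74) and 1 lower (CEBPD, −0.29), with a median of −0.06, and CEBPB was the most abundant. CEBPD was called in all 6 fits with a library left out and DBP in 2 of them, and DBP was not called without the filter (adjusted p = 0.111 by edgeR) or by limma on FPKM (adjusted p = 0.121 and 0.113). HNF4A had 122, 30 and 64 counts in control and 35, 46 and 27 in knockdown (−1.15, SE 0.49, adjusted p = 0.128 by edgeR). Its highest library was control 1, the control library lowest in ALB, and its lowest was knockdown 3, the knockdown library lowest in ALB. A link between HNF4A and ALB was not tested. Genes used everywhere had a median of −0.04 over 14, with GAPDH at 0.11, ACTB at 0.15, B2M at −0.41 and GUSB at −0.24.

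Markers of other cell types were read beside the liver genes, again against 10.4% of all genes called higher and 12.4% called lower. Of 10 tested biliary and progenitor markers, 2 were higher (CD24 at 0.69 and CLDN4 at 1.08) and 1 was lower (KRT7 at −0.48). Their summed FPKM, of which KRT7 was the most abundant, was 383.2, 383.0 and 367.0 in control and 299.7, 302.4 and 304.7 in knockdown, and without KRT7 41.3, 40.9 and 39.4 in control and 52.2, 52.9 and 49.9 in knockdown. Of 12 tested fibroblast, endothelial and immune markers, 3 were higher (CD68 at 0.64, COL1A1 at 0.20 and PDGFRB at 0.68) and 1 was lower (CDH5 at −0.70), and their summed FPKM, in which CD68 was the most abundant gene, was 22.4, 20.8 and 22.1 in control and 28.2, 30.4 and 28.6 in knockdown. Without CD68 the sum was 11.7, 10.4 and 11.4 in control and 11.6, 12.3 and 12.1 in knockdown, and the groups overlapped. TIE1 was at 0, and COL3A1 had 336, 0 and 48 counts in control and 42, 61 and 0 in knockdown. The sums did not set control 1 and knockdown 3 apart, but they rest on their abundant genes and do not show how markers with few counts behaved. Among those, EPCAM was low in control 1 and knockdown 3, as given above. LUM and SPP1 were highest in control 1 and lowest in knockdown 3. The part of these markers in the changes of the liver genes was not tested.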

How the data were processed

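Total RNA of 6 LM3 libraries was sequenced on an Illumina instrument. The authors deposited a table of raw counts and of FPKM, the latter scaled by them to gene length and library size. HISAT2 was used for mapping, and the submitters' processing notes name GRCh38, cutadapt 1.9 and FastQC. The counting program, annotation and use of strand were not given in the sources used here. Positions follow GRCh38, as 99.77% of 32092 genes also listed in GENCODE release 29 lay over their GENCODE interval.

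After filterByExpr and TMM scaling, groups were compared by glmQLFit and glmQLFTest in edgeR 4.0.16 (R 4.3.3), with a term for group and Benjamini-Hochberg adjustment over 18390 genes. The fit was also run on simulated data, and the outcome is not reported here. With 3 libraries against 3, an exact permutation test cannot give a two-sided p below 0.1. The standard error was taken as |log2 fold change|/√F. DESeq2 1.42.0, limma 3.58.1 on log2(FPKM + 0.1) and log2(FPKM + 1), other scalings and filters, the replicate number as a term, and leaving out libraries were alternatives. Folds in the text are from the fit on counts. Depth limits genes with few counts, and such limits cover counting error only.

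The genes, role groups and other lists were chosen with earlier results of these data known. All 35 liver genes are accounted for. From each other list, at most 4 called genes without overlap between groups and with the smallest p were named, and other genes were named after their values were seen. Some results under this rule are left out of the text. Promoter sequences are from RefSeq (GRCh38.p14). The rule was to show those of the 4 tested liver genes with the largest mean count that had an entry, and AFP was added after its values were seen.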

Additional observations from a re-analysis of the deposited data

How the results depend on the processing

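With all libraries, 1906 genes were called higher and 2286 lower, and 0 and 5 of the liver genes. Scaling by library size alone gave 1518 lower genes and 1 higher liver gene (TDO2), no filter gave 1253 higher genes and 3 lower liver genes, and a mean count of at least 50 gave 1 higher (TDO2) and 3 lower liver genes. limma on log2(FPKM + 0.1) called 1362 genes lower and on log2(FPKM + 1) 1357, where the liver genes' median was −0.15. The study's criteria gave 1081 lower genes, with 12 lower and 2 higher liver genes. Leaving out control 1 and knockdown 3, a choice made after the values were seen, gave 1189 higher and 1631 lower genes and 8 lower liver genes. Of these 8, the calls of ALB, TF, APOA1, APOA2, APOB, CPS1 and APOH are no test. Leaving out each library in turn gave 1148 to 1485 higher and 1500 to 1939 lower genes, 0 higher and 1 to 7 lower liver genes, and a median from −1.10 to −0.65. DESeq2 called 2355 genes and 6 liver genes lower, with APOA2, APOE and CPS1 gained, and gave APOH (−2.33) and PCK1 (−2.19) no adjusted p. The causes were not tested.

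With the replicate number as a block, 1967 genes were higher and 2394 lower, with 7 liver genes lower and a median of −0.94. APOA1, APOA2 and CPS1 gained a call and PCK1 lost it. The deviations of same-numbered libraries correlated at 0.075, −0.009 and 0.08, so the numbers were not taken to pair the samples.

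Of 387 values of the liver genes under the alternatives, 377 kept their sign. TTR turned to 0.001 by library size, 0.40 without control 2, 0.30 without control 3, 0.25 without knockdown 1 and 0.53 without knockdown 3. APOM turned to −0.07 without control 2 and −0.05 without knockdown 1, ORM1 to −0.15 without knockdown 1, and AMBP to 0.16 and RBP4 to 0.02 without knockdown 3. With a library left out, the lowest or highest values at the other end were −1.90 for TTR, −0.84 for AMBP, −0.96 for RBP4, 0.36 for APOM and 1.01 for ORM1. FGL1 was called lower in every refit and scaling listed here. Genes with few counts per library, such as APOH and PCK1, are limited by depth.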
